A study of Homo sapiens with 5 samples.

Results

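The mRNA levels of 10 circadian clock genes were read in NCI-H209, an established neuroendocrine cell line of human small-cell lung cancer (SCLC), with and without co-culture with human brain microvascular endothelial cells (HBMECs). The genes were ARNTL, CLOCK, PER2, PER3, CRY1, CRY2, NR1D1, NR1D2, DBP and BHLHE40, chosen by name as members of the clock, and they made up 10 of the 64837 gene entries counted. The control group held 3 cultures labelled untreated. The co-cultured group held 2 cultures conditioned by HBMECs for 24 h across a Transwell chamber. The tumor cells were kept in RPMI-1640, to which 10% fetal bovine serum was added, and the comparison asked how the endothelial cells changed them. The stock culture of the HBMECs also received Nu-serum, a serum supplement, and the medium in the Transwell chamber is not given in the sources used here, so a difference in medium and the presence of HBMECs cannot be told apart. All libraries came from 1 cell line, a tumor model without the tissue around it. Nothing in the labels says whether the cultures were set up separately, so the p-values measure the spread between these libraries, which may be technical. The hour at which cells were collected and the time of the last medium change are not given in the sources used here.

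In the clock, the transcription factors BMAL1, which ARNTL encodes, and CLOCK pair and bind E-boxes in the promoters of their target genes. Among these targets are the Period (PER) and Cryptochrome (CRY) genes, whose proteins return to the nucleus and inhibit the pair, which closes the main loop. A second loop runs through the nuclear receptors REV-ERBα (NR1D1) and REV-ERBβ (NR1D2), which repress ARNTL, and the ROR receptors, which activate it at the same elements. DBP is an output of the loop that activates genes through D-boxes, where NFIL3 represses. BHLHE40 (DEC1) is an E-box repressor that lies in the loop and is also known as a target of hypoxia-inducible factor (HIF), glucocorticoids and serum. PER1 and PER2 are known to respond to serum, cAMP and glucocorticoids as well, and cultured cells lose a common rhythm unless such a signal sets it.

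The promoters show which of these elements lie next to the genes. All 10 genes were found in the RefSeq promoter table of GRCh38.p14, ARNTL under its newer symbol BMAL1, with 15 annotated starts in all. The 250 bases before each start were searched on both strands for E-boxes (CACGTG), E′-boxes (CACGTT), D-boxes (TTATGTAA) and ROR elements (TAGGTCA). The search also covered ACGTG, called the HIF core here, which is contained in both kinds of E-box. Other forms of that core, such as GCGTG, were not searched for. The 5 windows below are shown because they hold the element of the gene that moved most, of PER2 and its paralog PER3, and of the REV-ERB pair, with every match in capitals and each sequence written 5′ to 3′ on the strand of the gene. They lie at chr3:4979187-4979436 (plus strand) for BHLHE40, chr2:238288611-238288860 (minus strand) for PER2, chr1:7784041-7784290 (plus strand) for PER3, chr17:40100590-40100839 (minus strand) for NR1D1 and chr3:23945871-23946120 (plus strand) for start 2 of NR1D2.
BHLHE40: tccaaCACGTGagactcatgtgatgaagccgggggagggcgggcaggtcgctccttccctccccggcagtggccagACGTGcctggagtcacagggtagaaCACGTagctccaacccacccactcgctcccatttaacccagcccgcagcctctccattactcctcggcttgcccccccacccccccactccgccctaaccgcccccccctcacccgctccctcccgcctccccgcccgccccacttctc
PER2: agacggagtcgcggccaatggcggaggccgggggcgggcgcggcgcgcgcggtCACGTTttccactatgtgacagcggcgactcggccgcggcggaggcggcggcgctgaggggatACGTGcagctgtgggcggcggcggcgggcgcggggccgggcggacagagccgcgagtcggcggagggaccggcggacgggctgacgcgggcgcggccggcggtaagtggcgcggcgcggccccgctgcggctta
PER3: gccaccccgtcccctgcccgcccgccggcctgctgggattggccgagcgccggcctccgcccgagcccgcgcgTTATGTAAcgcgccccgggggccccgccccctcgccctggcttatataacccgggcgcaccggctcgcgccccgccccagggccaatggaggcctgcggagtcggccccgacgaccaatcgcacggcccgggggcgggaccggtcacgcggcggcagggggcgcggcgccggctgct
NR1D1: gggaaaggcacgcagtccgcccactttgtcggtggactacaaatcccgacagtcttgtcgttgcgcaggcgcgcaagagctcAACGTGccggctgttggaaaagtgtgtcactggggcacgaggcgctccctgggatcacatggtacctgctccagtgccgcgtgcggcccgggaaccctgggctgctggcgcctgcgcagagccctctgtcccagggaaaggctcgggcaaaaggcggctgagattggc
NR1D2: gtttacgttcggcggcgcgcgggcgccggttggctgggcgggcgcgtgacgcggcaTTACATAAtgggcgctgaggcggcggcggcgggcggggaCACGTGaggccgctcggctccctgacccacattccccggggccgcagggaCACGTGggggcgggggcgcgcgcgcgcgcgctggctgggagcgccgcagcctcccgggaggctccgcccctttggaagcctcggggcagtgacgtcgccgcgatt

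Counting -1 as the last base before the start, BHLHE40 had an E-box at -245 to -240 and HIF cores apart from it at -174 and -149. PER2 had an E′-box at -197 to -192 and a HIF core at -134, and NR1D1 an E′-box at -168 to -163. PER3 had a D-box at -177 to -170 and no E-box. NR1D2 had a D-box at -194 to -187 and E-boxes at -155 and -105. Over the 15 windows of the 10 genes, 2 held an E-box (BHLHE40 and NR1D2), 5 an E′-box (CLOCK, PER2, CRY1, CRY2 and NR1D1), 2 a D-box, 1 the ROR element (CRY2) and 7 the HIF core. The share of all 35116 windows in the table was 6.34% for the E-box, 4.55% for the E′-box, 0.834% for the D-box, 1.61% for the ROR element and 18.5% for the HIF core. Each of the 7 windows with ACGTG also held an E-box or E′-box. Outside an E-box or E′-box, ACGTG was found in BHLHE40, PER2 and CRY2. These matches describe the letters in the windows and were not read as binding.

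**Figure D1:**
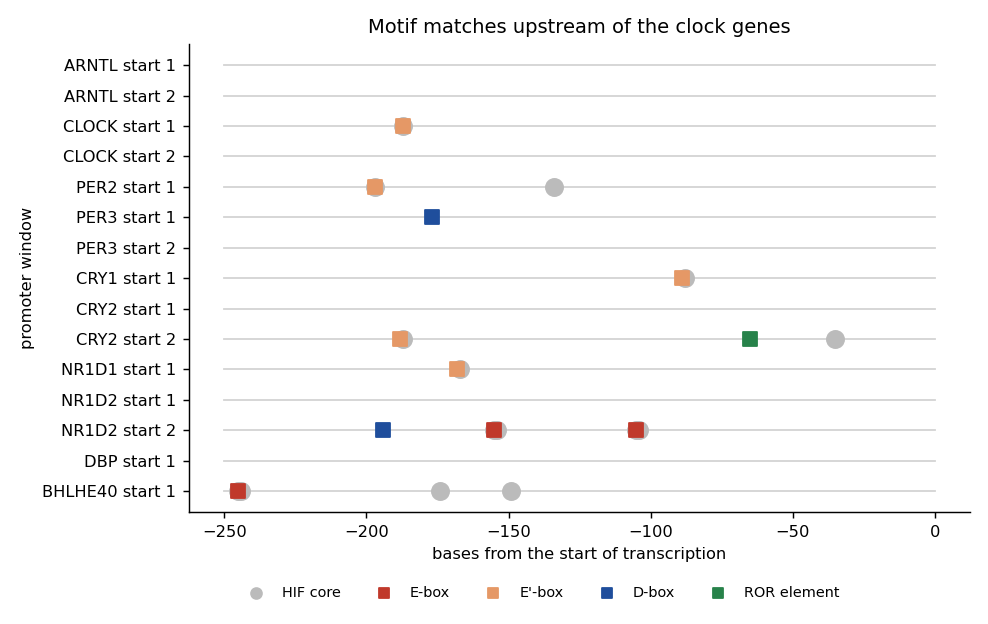
Motif matches in the 250 bases before each of the 15 annotated starts of the 10 clock genes; the x axis is the distance from the start in bases, and each row is 1 start. Squares mark E-boxes, E′-boxes, D-boxes and ROR elements. Grey circles mark ACGTG, the form of the HIF core searched for, which lies inside every E-box and E′-box. It lies apart from them in BHLHE40, PER2 and CRY2.

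The libraries held between 15457071 and 19157348 reads on genes, and 3 counts were worth 0.157 to 0.194 per 1000000 of these reads. Levels below are in CPM, reads on a gene per 1000000 reads of the TMM-scaled library. Of 16 neuroendocrine SCLC markers, 15 were measurable, of which 7 rose, SYP and NCAM1 among them, and DDC and STMN1 fell, with calls in 18.4% and 15.0% of all genes tested in the same directions, and CHGA was at 0 or 1 count in every library. Of 20 endothelial markers, 8 were at 3 counts or fewer in every library. Of the 9 tested, 1 rose (ESAM) and none fell, and PECAM1 was at 0.154 to 0.984 CPM. KDR, FLT1 and TEK had 24 to 37 counts in control replicates 1 and 2 and 0 to 2 in control replicate 3. After co-culture they had 1 to 12 counts, and none of them passed the test. The summed level of the list was 10.4 to 21.6 CPM in the controls and 13.8 and 14.1 CPM in the co-cultured libraries. Reads that did not map made up 8.13% to 8.48% of the control and 16.8% and 15.9% of the co-cultured libraries. Reads that mapped but fell on no counted gene made up 47.3% to 51.2% and, after co-culture, 40.1% and 40.8%. The part of these differences in the results was not tested. Control replicate 1 stood apart from the other controls on the next principal component after that of the groups, which carried 16.8% of the variance, so results that rest on it are given with and without it.

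The clock genes moved upward or did not pass the test, and none fell. Of the 10 genes, all of which passed the filter on low counts, 5 were higher after co-culture at an adjusted p under 0.05 in edgeR's quasi-likelihood test, against 18.4% of all 20360 genes tested. They were BHLHE40, PER2, ARNTL, CRY1 and CRY2. None of the 10 was lower, against 15.0% of all genes, and calls in either direction covered 33.4% of all genes. With upper-quartile in place of TMM scaling, 15.1% of all genes were higher and 19.3% lower, and 4 of the 10 genes were higher and none lower. Without co-cultured replicate 1 or 2, the genes called as higher were 3 of the 10, against 8.21% and 8.94% of all genes. CLOCK, PER3, NR1D1, NR1D2 and DBP did not pass. The median log2 fold change of the 10 genes was 0.38, beside -0.03 over all genes tested. The study set its DEGs by a limit of 1 on the fold change and of 0.05 on p, read here as a log2 fold change and a p that is not adjusted, since its methods state neither. By that reading 2 of the 10 were upregulated, BHLHE40 and PER2, against 5.44% of all genes, and none was downregulated, against 5.01%. In 7 of the 10 genes the lowest co-cultured library lay above the highest control, against 29.4% of all genes. In none did all controls lie above the co-cultured libraries, against 30.0% of all genes, and in CLOCK, NR1D2 and DBP the groups overlapped. In bulk RNA, a change in the share of cells that express a gene and a change of its level per cell cannot be told apart. For a single gene, an exact permutation test of 3 against 2 libraries cannot give a p below 0.1, so the tests rest on the fit across all genes.

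**Figure D2:**
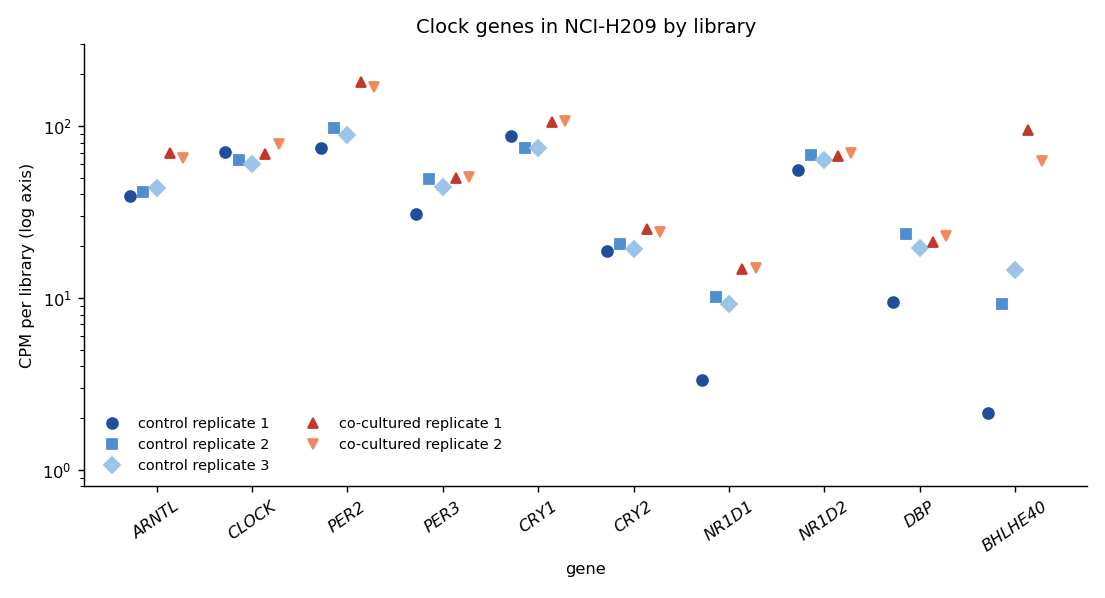
Level of each clock gene in each of the 5 libraries, in CPM on a log axis; circles, squares and diamonds are the 3 controls and triangles the 2 co-cultured libraries. BHLHE40 lay at 2.13 to 14.6 CPM in the controls and at 95.1 and 62.7 CPM after co-culture, and control replicate 1 lay far below the other controls in BHLHE40, NR1D1 and DBP.

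The largest change of the 10 was that of BHLHE40, the E-box repressor (ENSG00000134107.4, chr3:4979116-4985323, plus strand, in GRCh38 and GENCODE as are all gene positions here). It measured 2.13, 9.23 and 14.6 CPM in control replicates 1, 2 and 3, and 95.1 and 62.7 CPM in co-cultured replicates 1 and 2. Every co-cultured library was several times above every control, although the controls themselves spread over a factor of 6.86. The log2 fold change was 3.19 (SE 0.47, 95% interval 2.13 to 4.24, adjusted p = 0.00113), a fold of 9.10. Without control replicate 1, which was lowest at 40 counts, it was 2.73, a fold of 6.63. Over the 14 alternative settings it lay between 2.73 and 3.90 and passed the test in each. The protein-coding genes with the profile most like that of BHLHE40 over the 5 libraries, by the root mean square distance of centred log2 CPM among 12837 genes, were ITGA5 (0.451), an integrin subunit, NEDD9 (0.517), a scaffold protein of cell adhesion, and STC1 (0.544), a secreted glycoprotein. Their log2 fold changes were 3.70, 4.18 and 3.00.

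Of the activators, ARNTL rose and CLOCK did not pass the test. ARNTL (ENSG00000133794.17, chr11:13276652-13387266, plus strand) measured 39.0, 41.1 and 43.8 CPM in the controls and 69.7 and 65.5 CPM in the co-cultured libraries. The controls lay close together, and the co-cultured libraries well above them. Its log2 fold change was 0.71 (SE 0.08, 95% interval 0.52 to 0.90, adjusted p = 0.000385) and passed under all 14 alternatives. CLOCK (ENSG00000134852.14, chr4:55427903-55547138, minus strand), the partner of BMAL1, measured 70.4, 63.4 and 60.4 CPM in the controls and 69.1 and 78.2 CPM after co-culture. The groups overlapped, since control replicate 1 exceeded co-cultured replicate 1. Its estimate on the log2 scale was 0.19 with a 95% interval of -0.03 to 0.40 (adjusted p = 0.162). Without control replicate 1 it was 0.25 (adjusted p = 0.00837), in a fit that called 49.5% of all genes, and over all 14 alternatives the adjusted p ran from 0.00837 to 0.642. The log2 ratio of ARNTL to CLOCK within a library was -0.85, -0.63 and -0.46 in the controls and 0.01 and -0.26 after co-culture, with no overlap. The groups did overlap in the log2 ratio of ARNTL to NR1D1. It was 3.54, 2.03 and 2.25 in the controls and 2.25 and 2.13 after co-culture.

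Of the Period genes, PER2 rose and PER3 did not pass the test. PER2 (ENSG00000132326.11, chr2:238244038-238290102, minus strand), an inhibitor of the BMAL1 and CLOCK pair, measured 74.2, 97.4 and 88.3 CPM in the controls and 181 and 169 CPM after co-culture. Both co-cultured libraries were far above the highest control. On the log2 scale the fold change was 1.02 (SE 0.11, 95% interval 0.77 to 1.26, adjusted p = 0.000243), a fold of 2.02, and passed under all 14 alternatives. Its place on the criterion of the study was close to the edge, with a log2 fold change of 0.92 without control replicate 1. PER3 (ENSG00000049246.14, chr1:7784320-7845177, plus strand), its paralog, measured 30.8, 49.0 and 44.1 CPM in the controls and 49.6 and 50.6 CPM after co-culture. The lowest co-cultured library lay just above the highest control. Its log2 fold change was 0.28 (95% interval -0.09 to 0.65, adjusted p = 0.223), and 0.11 (adjusted p = 0.243) without control replicate 1. The log2 ratio of PER2 to PER3 within a library ranged from 0.99 to 1.27 in the controls and was 1.87 and 1.74 after co-culture, so PER2 gained on PER3 in both co-cultured libraries. The ratios of genes within a library given here were not tested by a model, and 3 against 2 libraries cannot go below an exact p of 0.1.

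Both Cryptochrome genes, which encode the other inhibitors of the pair, rose by a small amount. CRY1 (ENSG00000008405.11, chr12:106991364-107093829, minus strand) measured 87.7, 74.8 and 74.3 CPM in the controls and 105 and 106 CPM after co-culture. Its co-cultured libraries were alike and above all 3 controls. This was a log2 fold change of 0.42 (SE 0.09, 95% interval 0.22 to 0.63, adjusted p = 0.00706). Without co-cultured replicate 1 the adjusted p was 0.0606, and without co-cultured replicate 2 it was 0.0737, the highest of the 14 alternatives, under which it started at 3.81e-06. CRY2 (ENSG00000121671.11, chr11:45847118-45883248, plus strand) measured 18.7, 20.5 and 19.3 CPM in the controls and 25.3 and 24.2 CPM after co-culture. Again the groups did not overlap. The log2 fold change was 0.35 (SE 0.10, 95% interval 0.12 to 0.58, adjusted p = 0.0287), and it passed the test under 7 of 14 alternatives, with adjusted p = 0.0542 in DESeq2 and a range of 0.0103 to 0.185. The log2 ratio of CRY1 to CRY2 overlapped between the groups, from 1.87 to 2.23 in the controls and from 2.06 to 2.13 after co-culture.

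The REV-ERB receptors and DBP did not pass the test in the 5 libraries, and for NR1D1 and DBP the intervals were wide and the controls spread over a factor of 3.00 and 2.49. NR1D1 (ENSG00000126368.5, chr17:40092787-40100725, minus strand) measured 3.35, 10.1 and 9.22 CPM in the controls and 14.6 and 15.0 CPM after co-culture. All controls were below both co-cultured libraries, and control replicate 1 was far below the other controls. The log2 fold change was 0.97 (SE 0.34, 95% interval 0.20 to 1.75, adjusted p = 0.0544). Without control replicate 1 it fell to 0.62 while the adjusted p became 0.000628. It passed under 6 of 14 alternatives, with adjusted p between 1.47e-07 and 0.214.

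NR1D2 (ENSG00000174738.12, chr3:23945260-23980618, plus strand), the second REV-ERB, measured 55.5, 67.7 and 63.5 CPM in the controls and 66.8 and 69.8 CPM after co-culture. The groups overlapped, and the log2 fold change was 0.13 (95% interval -0.08 to 0.35, adjusted p = 0.315). The log2 ratio of NR1D1 to NR1D2 was -4.05, -2.75 and -2.78 in the controls and -2.19 and -2.22 after co-culture. NR1D1 thus gained on its paralog, by less against control replicates 2 and 3 than against replicate 1. DBP (ENSG00000105516.10, chr19:48630030-48637438, minus strand), the D-box activator, measured 9.41, 23.4 and 19.5 CPM in the controls and 21.1 and 22.8 CPM after co-culture. Control replicates 2 and 3 lay around the co-cultured libraries, and the log2 fold change of 0.33 (95% interval -0.33 to 0.99, adjusted p = 0.416) became 0.04 (adjusted p = 0.812) without control replicate 1.

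**Figure D3:**
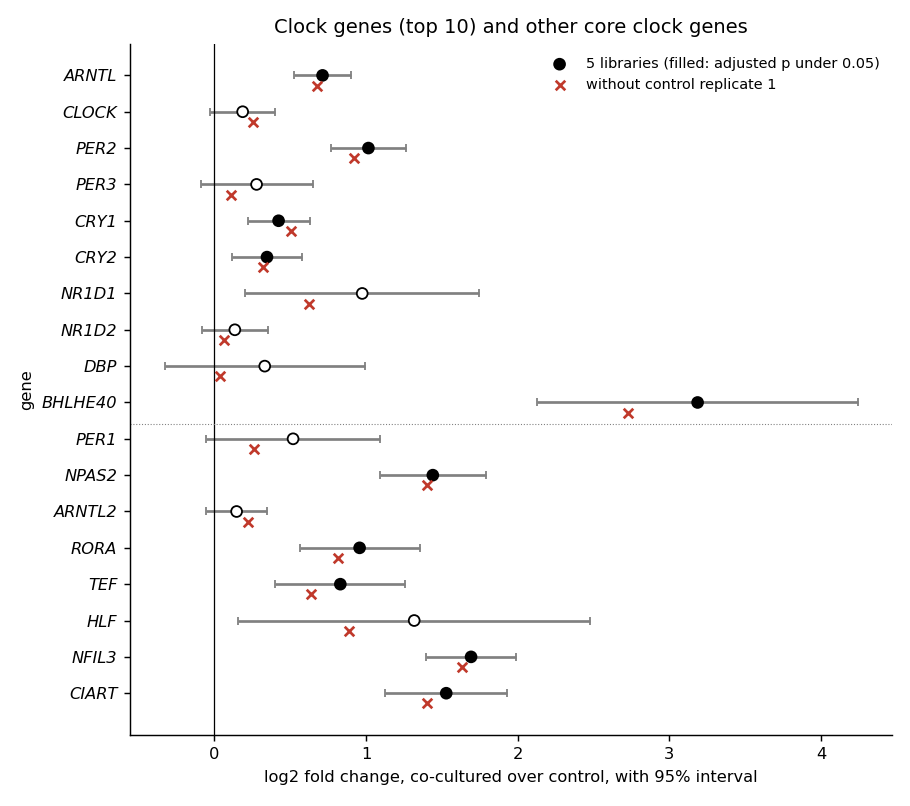
Log2 fold change between the co-cultured and control groups (x axis) with its 95% interval for the 10 clock genes (above the dotted line) and the 8 other core clock genes that could be tested; filled circles passed an adjusted p under 0.05 in edgeR's quasi-likelihood test, and crosses are the values without control replicate 1. Without that library, the estimates of CLOCK, CRY1 and ARNTL2 moved away from 0. All others moved toward it, among them BHLHE40, HLF, NR1D1, DBP, PER1, TEF and PER3.

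The untreated cultures differed among themselves in several of these genes. Control replicate 1 was the lowest control in 8 of the 10 genes, against 39.2% of all genes tested, and under 1/2 of both other controls in BHLHE40, NR1D1 and DBP, against 2.98% of all genes. Its level over the mean of the other controls was 0.179 for BHLHE40, 0.347 for NR1D1, 0.439 for DBP, 0.662 for PER3 and 0.799 for PER2. In CLOCK and CRY1 the same library was the highest control, at 1.14 and 1.18 times the mean of the others. Control replicate 3 was the highest control in 2 of the 10 genes, ARNTL and BHLHE40, against 30.0% of all genes. Among the core clock genes beyond the 10, PER1 measured 14.0 CPM in control replicate 1 and 28.5 and 27.6 CPM in the others, and TEF, a relative of DBP, 9.78 CPM against 15.8 and 16.2 CPM. Leaving out control replicate 1 raised the number of the 10 genes called from 5 to 7, by adding NR1D1 and CLOCK, while the share of all genes called as higher rose to 26.5%.

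**Figure D4:**
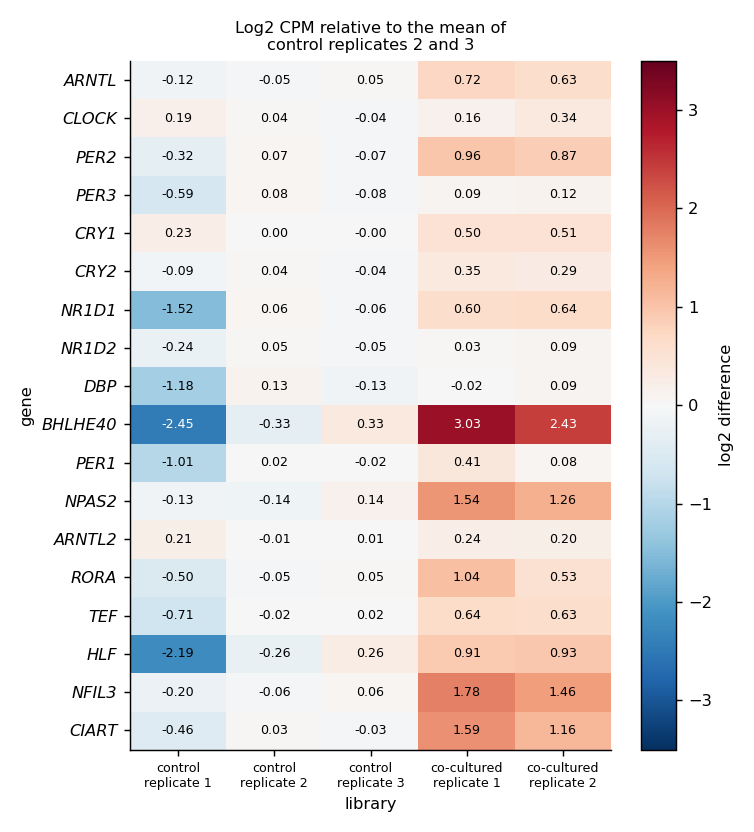
Log2 CPM of the 10 clock genes and the 8 other core clock genes that could be tested, relative to the mean of control replicates 2 and 3; columns are the 5 libraries and the number in each cell is the log2 difference. Control replicate 1 was at -2.45 for BHLHE40, -1.52 for NR1D1 and -1.18 for DBP, and the co-cultured libraries were at 3.03 and 2.43 for BHLHE40 and at 0.96 and 0.87 for PER2.

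Per length of transcript, BHLHE40 changed its place among the 10 genes more than any other. On the TPM scale, reads per length of the union of exons brought to a total of 1000000 in each library, the control means ran from CRY1 at 55.1, PER2 at 45.0 and NR1D2 at 38.2, through ARNTL at 21.8, CLOCK at 19.5 and PER3 at 18.3, to CRY2 at 11.2, NR1D1 at 9.87, DBP at 9.65 and BHLHE40 at 8.15. In that order, neighbours overlapped over the 3 libraries everywhere except between NR1D2 and ARNTL. After co-culture, PER2 was first at 85.6, CRY1 was at 70.3 and BHLHE40 at 69.0, and NR1D2, ARNTL, CLOCK, PER3, NR1D1, CRY2 and DBP followed at 39.5, 33.8, 21.1, 20.8, 18.0, 13.4 and 11.3. Only CRY1 with BHLHE40 and CLOCK with PER3 overlapped there. BHLHE40 thus went from rank 10 to rank 3.

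Reads on the other strand of PER2 moved against the gene. On its own strand, PER2 had 1396, 1762 and 1725 counts in the controls and 3311 and 2562 after co-culture. On the opposite strand it had 101, 114 and 115 counts in the controls and 19 and 21 after co-culture. Opposite reads thus made up 6.75%, 6.08% and 6.25% of the reads on PER2 in the controls and 0.571% and 0.813% after co-culture. The 95% Wilson intervals ran from 5.08% to 8.13% over the controls and from 0.366% to 1.24% over the co-cultured libraries, and cover counting error only. In CPM the opposite strand fell from 5.85 ± 0.468 (SD, n = 3) to 1.21 ± 0.247 (SD, n = 2), 4.83 times higher in the controls. A gene on that strand, AC012485.1 (ENSG00000225057.2, a processed transcript at chr2:238231684-238255633, plus strand), shares 188 exonic bases with PER2. Its own counts were 41, 62 and 50 in the controls and 11 and 12 after co-culture, a log2 fold change of -1.97 (SE 0.34, adjusted p = 0.00256). Every control was above both co-cultured libraries for both measures. Reads on the shared bases can count in both measures. With unstranded counts the call of AC012485.1 was lost (log2 fold change -0.28, adjusted p = 0.370). Unstranded counts include the strand of PER2. That strand held 76.9% to 80.6% of the stranded reads on AC012485.1 in the controls and 96.5% and 95.8% after co-culture.

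**Figure D5:**
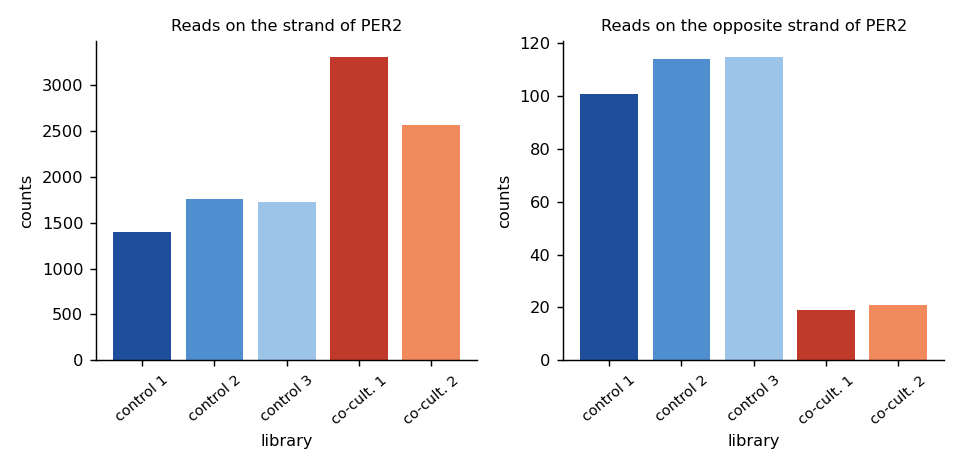
Counts on the strand of PER2 (left) and on the opposite strand (right) in each library, as deposited and not scaled for depth; the 2 axes differ in range and start at 0. The sense counts were 1396 to 1762 in the controls and 3311 and 2562 after co-culture, whereas the opposite counts were 101 to 115 in the controls and 19 and 21 after co-culture.

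In the other members the level of opposite reads, in CPM, overlapped between the groups. In ARNTL the opposite share went from 8.49%, 7.82% and 8.65% in the controls to 5.34% and 5.25% after co-culture, while its opposite level was 3.48 to 4.15 CPM in the controls and 3.94 and 3.63 CPM after co-culture. NR1D1 shares 263 exonic bases with THRA, the thyroid hormone receptor gene on the plus strand, and its opposite share was 49.2%, 28.3% and 31.0% in the controls and 20.2% and 19.2% after co-culture. Its opposite level was 3.24 to 4.15 CPM in the controls and 3.72 and 3.57 CPM after co-culture. DBP shares 661 exonic bases with SPHK2 and had 12.6% to 31.9% opposite reads. CLOCK shares 76 exonic bases with TMEM165 and 27 with AC024243.1, both on the opposite strand, and had 8.78% to 14.5%. Neither THRA (log2 fold change 0.28, adjusted p = 0.0905), SPHK2 (-0.03, 0.914) nor TMEM165 (-0.01, 0.964) passed the test. In PER3, CRY2 and NR1D2 no library had more than 2 opposite counts. The values of NR1D1, DBP and CLOCK above use the strand of the gene and so leave these reads out.

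Several core clock genes outside the 10 rose as well. Of 11 listed, 8 were measurable and 5 of these rose, against 18.4% of all genes. None was lower, against 15.0% of all genes, and the median log2 fold change was 1.14, beside -0.03 over all genes tested. NFIL3, the D-box repressor that opposes DBP, measured 9.73, 10.7 and 11.7 CPM in the controls and 38.3 and 30.8 CPM after co-culture (log2 fold change 1.69, adjusted p = 5.65e-05). The log2 ratio of NFIL3 to DBP went from 0.05, -1.12 and -0.74 in the controls to 0.86 and 0.44. NPAS2, a paralog of CLOCK that can replace it beside BMAL1, measured 5.64, 5.58 and 6.81 CPM in the controls and 17.9 and 14.7 CPM after co-culture (1.44, adjusted p = 0.000243). CIART, a repressor of the BMAL1 and CLOCK pair, measured 6.81, 9.57 and 9.11 CPM in the controls and 28.1 and 20.8 CPM after co-culture (1.53, adjusted p = 0.000342). Each of these lay above every control in both co-cultured libraries, as did 29.4% of all genes tested.

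RORA, the receptor that activates ARNTL, measured 88.8, 121 and 130 CPM in the controls and 259 and 181 CPM after co-culture (log2 fold change 0.96, adjusted p = 0.00326), and lost its call without co-cultured replicate 1 (adjusted p = 0.0590). TEF reached 24.8 and 24.6 CPM after co-culture (0.83, adjusted p = 0.00958), and lost its call without co-cultured replicate 1 (adjusted p = 0.0816) or 2 (adjusted p = 0.0700). PER1 reached 37.2 and 29.7 CPM after co-culture (0.52, adjusted p = 0.149). HLF, another D-box activator of this family, was close to the limit of detection at 3 counts in control replicate 1 and 25 at most (1.32, adjusted p = 0.0777). ARNTL2, the paralog of ARNTL, was at 123, 106 and 108 CPM in the controls and 126 and 122 CPM after co-culture (0.15, adjusted p = 0.234). RORB and BHLHE41, the paralog of BHLHE40, were not tested, since no library held more than 11 counts of either.

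Around the core, some genes rose and some fell, and the counts are read beside the 18.4% of all genes that were higher and the 15.0% that were lower. Of 17 measurable kinases and ubiquitin ligases that act on the clock proteins, 3 rose and 1 fell, about the share of all genes that rose. The one that fell was CSNK1D, which encodes casein kinase 1 delta, a kinase of the PER proteins, with a log2 fold change of -0.28 (adjusted p = 0.0166). USP7, a deubiquitinase of the CRY proteins, was at 0.29 (adjusted p = 0.0247) and PRKAA1, a subunit of AMPK, at 0.24 (adjusted p = 0.0332). These calls were not firm, since CSNK1D passed under 10, USP7 under 8 and PRKAA1 under 6 of the 14 alternatives, with adjusted p up to 0.150, 0.194 and 0.242. Of 20 cofactors, 6 rose and 4 fell. SIRT1, a deacetylase that acts on the BMAL1 and CLOCK complex, was at a log2 fold change of 1.02, TBL1XR1, a corepressor subunit, at 0.59, and SFPQ, an RNA-binding protein found with PER, at -0.82. Of 15 output genes, 6 rose and 1 fell, with KLF10, a transcription factor under clock control, at 1.17, NAMPT, the rate-limiting enzyme of NAD salvage, at 1.31 and CDKN1A, the cell cycle inhibitor p21, at 1.71. In all, 20 of the 60 tested clock genes outside the 10 rose and 6 fell, with a median log2 fold change of 0.23, beside -0.03 over all genes tested.

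Lists of genes that respond to signals known to reach the clock genes were measured too, beside the 18.4% of all genes that were higher and the 15.0% that were lower. Of 27 hypoxia-responsive genes, 25 rose and none fell, with a median log2 fold change of 1.58, and their summed level was 3201 to 4274 CPM in the controls and 9122 and 11841 CPM after co-culture. TPI1, a glycolytic enzyme, and VEGFA, the endothelial growth factor, stood at 1.47 and 1.59. Among the controls, 24 of the 27 were lowest in replicate 1 and 25 were highest in replicate 3. Over all genes tested, 39.2% were lowest in replicate 1 and 30.0% highest in replicate 3, and the share with both was not counted. Of the 10 clock genes, 8 were lowest in replicate 1 and 2 were highest in replicate 3. Of the 8 other core genes tested, 6 were lowest in replicate 1 and 5 highest in replicate 3. Of 21 measurable serum and immediate early genes, 14 rose and none fell (median 0.82), from a summed 568 to 617 CPM to 941 and 947 CPM, with KLF4 at 1.32 and ATF3 at 1.10. Of 19 glucocorticoid-responsive genes, 11 rose and 1 fell (median 0.52), from 718 to 765 CPM to 1622 and 1806 CPM, with TSC22D3 at 2.37 and DDIT4 at 2.30. Of 16 cAMP and CREB targets, 7 rose and 1 fell (median 0.51), from 190 to 216 CPM to 273 and 274 CPM, with PDE4D at 1.50 and VGF at 1.26. The lists share genes with each other and hold none of the 10. PER1 is on both the glucocorticoid and the cAMP list, and its log2 fold change of 0.52 is the median of the glucocorticoid list. The part of any of these signals in the levels of the clock genes was not tested.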

How the data were processed

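RNA-Seq was made from rRNA-depleted total RNA of NCI-H209 cells with a directional kit, in 3 control and 2 co-cultured libraries. The authors deposited whole-number counts of reads per gene for each library, in the layout of STAR gene counting, with 1 unstranded and 2 stranded columns. Per the labels, GRCh38 was the build, and the submitters' processing notes name CASAVA 1.8, STAR 2.6.1b and DESeq2. The 64837 entries included each of the 58780 genes in GENCODE release 29. The column of the strand that holds 92.3% to 93.1% of the stranded gene counts was used. A deposited table that pairs gene IDs with names was used for the names alone, and its fold changes and p-values were left out.

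The 10 genes and all lists were chosen with earlier results of these data known. Genes were filtered with filterByExpr, scaled by TMM and tested over all 5 libraries with edgeR 4.0.16 (R 4.3.3, quasi-likelihood F test, no covariates), and p-values were adjusted by the Benjamini-Hochberg method over all 20360 genes kept. CPM use the TMM-scaled library sizes. SE was the absolute log2 fold change over the square root of F. The fit was tested on simulated data. Calls used an adjusted p under 0.05, or the DEG limits of the study as read here. Replicates differed beyond sampling noise (chi-square per degree of freedom 4.60 to 18.2), so each counted once. TPM and annotation came from GENCODE, and promoter sequences from RefSeq.

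Named genes were the 10, the other core clock genes, the 3 (clock lists) or 2 (signal lists) with the smallest p among those called, genes overlapping a member, and the 3 nearest in profile to the member with the largest change. Markers were named to check the cell type. Some genes of the lists are not reported here by name. Alternatives were DESeq2 1.42.0, the edgeR exact test, median-ratio and upper-quartile scaling, a filter of 1 count in any library or of 10 counts in every library, unstranded counts, protein-coding genes alone, the replicate block and leaving out each library. The shares of all genes called without a library were added after the data were seen.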

Additional observations from a re-analysis of the deposited data

How the results depend on the processing

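The 5 called genes became 4 to 7 under the alternatives that kept all libraries or left out a control, and 3 without either co-cultured library. BHLHE40, PER2 and ARNTL passed under all 14 alternatives. Leaving out 1 library at a time gave 3 to 7 of the 10 genes as higher, and none as lower under any alternative. By the criterion of the study the 2 genes became 1 with upper-quartile scaling, unstranded counts or protein-coding genes alone, and 1 to 3 when a library was left out. Of the clock genes outside the 10, the 20 that were higher became 11 to 32 when a library was left out. The 6 that were lower became 1 to 7. Most calls came without control replicate 1 and the fewest without a co-cultured library. Without control replicate 1, 26.5% of all genes were higher and 23.0% lower, against 18.4% and 15.0% with all libraries. The shares of all genes were smaller in both directions without a co-cultured library. These counts thus cannot be read as a change of the clock genes alone. The cause was not tested.

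Deviations from the group mean correlated at -0.146 between the libraries of replicate number 1 and at -0.0822 for number 2. With 2 co-cultured libraries their deviations mirror each other, so the 2 values are not separate checks. They cannot settle whether a number marks anything shared, and the labels do not say that it does. The replicate number was also used as a block. Number 3 exists only among the controls, so control replicate 3 added nothing to the estimated difference in that fit. The estimate rested on numbers 1 and 2 of each group and is not a check over all 5 libraries. In it, 5 of the 10 genes were called, all as higher, with NR1D1 (adjusted p = 0.000693) in and CRY2 (adjusted p = 0.153) out. The criterion of the study was met by 3 of the 10. Of the clock genes outside the 10, 17 rose and 3 fell. The block fit called 23.7% of all genes, against 33.4% in the main fit. How much of this came from comparing fewer libraries was not tested. Upper-quartile scaling moved the median of all genes from -0.03 to -0.11 on the log2 scale. Over the single genes named, no direction of a called gene reversed, and of the values under alternatives 498 stayed on their side of the threshold, 15 came to pass it and 31 no longer did. With 3 against 2 libraries, values within the intervals given for CLOCK, PER3, NR1D2 and DBP could not be distinguished, and BHLHE40 in control replicate 1 rests on 40 counts.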
